A study of Mus musculus with 9 samples.

Results

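The cytosolic ribosomal protein genes are the genes for the proteins of the large (Rpl) and small (Rps) subunits of the ribosome outside mitochondria. They were taken from the count table as all rows whose symbol is Rpl or Rps followed by a digit, together with Rpsa, Rplp0, Rplp1 and Rplp2, without S6 kinase genes and without symbols containing -ps. A level of at least 1 CPM (counts scaled to a common library total) in 3 or more of the 9 libraries was also required. The rule found 80 genes among the 14209 genes in the table. Of these, 74 encode standard subunits (43 Rpl, 31 Rps) and 6 are paralogues or carry the symbol pattern only (Rpl22l1, Rpl36al, Rpl7l1, Rps27l, Rps4y2 and Rps19bp1). A further 3 symbols of the pattern lay below the level threshold (Rpl30, Rpl34 and Rpl39l, with 1 to 7 counts per library). The member closest to the threshold was Rps27, at 0.714, 0.882 and 0.806 CPM in CD97-deficient, 1.92, 1.41 and 1.87 CPM in Gα13-deficient and 1.15, 0.933 and 1.19 CPM in WT libraries. Rps27 thus passed through its Gα13-deficient libraries and WT replicates 1 and 3. Without the Gα13-deficient libraries it would not have met the rule. The next ones inside were Rps4y2 (1.53 to 4.26 CPM) and Rps19bp1 (4.88 to 8.98 CPM). All 80 genes also passed the expression filter of the test.

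RNA came from splenic type 2 conventional dendritic cells (cDC2s), the dendritic cell subset that mainly primes CD4 T cells, of C57BL/6 mice. The 3 groups, with 3 libraries each, were CD97-deficient (Adgre5-/-, labelled CD97 KO), Gα13-deficient (Gna13 fl/fl crossed to CD11c-Cre) and wild type (WT). CD97 belongs to the adhesion family of G protein-coupled receptors. Gα13 signals from such receptors to the GTPase RhoA. The CD11c promoter that drives Cre is active in dendritic cells and in other cells that express CD11c, and the sources used here do not say whether CD97-deficient or WT mice carried Cre. The genotype text of the Gα13-deficient samples also names Adgre5-/-, so both targeted genes were read first. The age and sex of the mice are also not given. Nor do the labels say that libraries of 1 group are from different mice, so the p-values reflect the spread among libraries, part of which may be technical. The comparisons ask how each deficiency differs from WT and whether the deficiencies differ from each other.

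Each cytosolic ribosome holds one copy of most of these proteins, so cells make them in matched amounts. Their genes are among the most active housekeeping genes. The mRNAs carry a 5′ terminal oligopyrimidine (TOP) motif, a cytosine at the start of the transcript followed by a run of pyrimidines, through which the growth-sensing kinase mTORC1 and the protein LARP1 control their translation and stability. Dendritic cells raise and lower protein synthesis as they divide and mature.

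Library totals ran from 5679946 to 13904646 counts. Cd97 (the older symbol of Adgre5) had 726, 840 and 438 CPM in CD97-deficient, 1145, 1224 and 1016 CPM in Gα13-deficient and 1506, 899 and 1299 CPM in WT libraries, scaled with TMM factors as are all CPM values below unless the library total is named as the base. The CD97-deficient libraries were all below the others, with WT replicate 2 close to them, and the log2 fold change of -0.89 ± 0.28 (SE) against WT missed the threshold (edgeR adjusted p = 0.105). The counts cover the whole gene, and the sources used here do not name the deleted part. Gna13 had 114, 96.8 and 91.7 CPM in Gα13-deficient, 227, 217 and 246 CPM in CD97-deficient and 227, 228 and 186 CPM in WT libraries, a log2 fold change of -1.09 for Gα13-deficient against WT cells (edgeR adjusted p = 6.84e-05). All 10 fixed cDC2 markers were detected in every library, and their summed level, as CPM of the library total, was 9441 to 9647 CPM in CD97-deficient, 9657 to 10560 CPM in Gα13-deficient and 9762 to 10667 CPM in WT libraries. In CD97-deficient cells 0 of the 10 were called and all 10 fitted log2 fold changes were below 0 (median -0.18). In Gα13-deficient cells Irf4 (-0.37), Esam (-0.53) and Cd4 (-0.66) were called lower and Itgax (0.34) higher (median -0.21). Xcr1, a marker of type 1 dendritic cells, was called higher in both groups (1.32 and 1.22), with 8.20 to 23.0 CPM in CD97-deficient, 12.8 to 15.8 CPM in Gα13-deficient and 4.04 to 8.43 CPM in WT libraries, and Batf3 of the same list was called lower in Gα13-deficient cells (-0.43). Cx3cr1, from the monocyte list, was called higher in Gα13-deficient cells (1.53; edgeR adjusted p = 0.0122). The part of these markers in the results below was not tested. Red pulp macrophage markers varied inside groups, with sums of 487 to 1803, 612 to 974 and 430 to 1375 CPM of the library total in the same order of groups. Emr1 of that list was called lower in both deficient groups (-0.62 and -0.73), while 11 and 9 of the 12 fitted values were above 0. Cr2, from the B cell list, was called lower in Gα13-deficient cells (-1.19; edgeR adjusted p = 0.0106). The part of these genes was not tested either. All 3 CD97-deficient libraries, Gα13-deficient replicate 2 and WT replicate 2 had a female pattern of Xist and Y-linked genes, and the other 4 libraries had a male one.

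RefSeq start windows on GRCm38.p6 were found for 60 of the 80 genes. Where a gene had several windows, the one with the longest run of C and T at the start was used, here and for all genes. In 13 of the 60 (21.7%) the annotated transcript began with C followed by C or T to a run of at least 5, against 3.01% of all 27025 genes with a window, and 23 (38.3%) had a run of at least 8 C or T with its first C within 10 bases of the start, against 9.12%. The windows below hold 10 bases before the annotated start and 20 from it. Capitals mark the unbroken run of C and T that begins with C at the start. First come the windows with the 5 longest runs, then those of Rpl28, Rps2, Rps26, Rps19 and Rpl13, which passed the test in at least 1 comparison below.
Rpl15, chr14:18270967-18270996, minus strand: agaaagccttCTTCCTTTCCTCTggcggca
Rpl35, chr2:39005112-39005141, minus strand: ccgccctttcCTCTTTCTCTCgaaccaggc
Rps10, chr17:27635225-27635254, minus strand: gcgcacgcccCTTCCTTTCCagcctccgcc
Rps18, chr17:33955646-33955675, minus strand: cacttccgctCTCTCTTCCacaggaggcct
Rps6, chr4:86857348-86857377, minus strand: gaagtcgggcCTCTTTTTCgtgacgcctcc
Rpl28, chr7:4792955-4792984, plus strand: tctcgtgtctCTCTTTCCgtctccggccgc
Rps2, chr17:24720053-24720082, plus strand: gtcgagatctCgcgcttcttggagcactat
Rps26, chr10:128626487-128626516, minus strand: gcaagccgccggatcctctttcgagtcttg
Rps19, chr7:24884903-24884932, plus strand: agcggggtgtggagggctctcccacgcggt
Rpl13, chr8:123102340-123102369, plus strand: tttcgcctgattttgattggcgtttgagat
Of the 5 members printed for their test result, Rpl28 alone had a run of at least 5 from the annotated start, while runs of 8, 7 and 6 with their first C within 10 bases of it lay further in for Rps26, Rps19 and Rps2, and Rpl13 had none over 3. The annotated start need not be the start used in these cells. Transcript ends were not measured here.

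Promoters of these genes also shared letters around the start. The core of the motif of ETS transcription factors, CGGAAG, was searched on both strands in the 300 bases from 250 before to 50 after the start. It was present in 40 of 60 members (66.7%), against 17.1% of all genes with a window, scored in the same single window per gene. The count includes genes whose core lies after the annotated start, such as Rpl11 and Rpl31. Rpl19 held the core in another of its windows, 39 bases before that start, and counts here among the genes without it. The examples below show 30 bases with the core in capitals (CTTCCG where it lies on the opposite strand). They are for Rps26 and Rps2, the called members with a window that hold it, and for the uncalled members Rpl4 and Rpsa.
Rps26, chr10:128626702-128626731, minus strand, 213 bases before the start: ttaatcttccgcCGGAAGgttaaatagttc
Rps2, chr17:24719924-24719953, plus strand, 127 bases before the start: tatttatacgtcCTTCCGgctggtgtaggg
Rpl4, chr9:64173316-64173345, plus strand, 59 bases before the start: aggggcaggatgCGGAAGacgagtggaagg
Rpsa, chr9:120127693-120127722, plus strand, 61 bases before the start: ctttttccggagCGGAAGttctcccttttt
The called members Rpl28, Rps19 and Rpl13 held no core in the window scored. The match describes letters only, and no binding was measured. The 13 genes with a pyrimidine run at the start had median log2 fold changes of 0.13 in CD97-deficient and 0.15 in Gα13-deficient cells against WT, and the 47 without one had 0.16 and 0.16. Genes with the ETS core had medians of 0.16 and 0.18 (n = 40), and those without it 0.14 and 0.11 (n = 20). Of the genes with the core 2 were called higher in CD97-deficient and 2 in Gα13-deficient cells, and of those without it 0 and 3.

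The 80 genes together took a larger share of the counts in both deficient groups than in WT. Their summed counts were 1.71%, 1.67% and 1.76% of the library total in CD97-deficient, 1.75%, 1.71% and 1.69% in Gα13-deficient and 1.42%, 1.55% and 1.54% in WT libraries. Every library of the deficient groups was above every WT library, and WT replicate 1 was the lowest. The means were 1.71% ± 0.047 (SD, n = 3) in CD97-deficient, 1.72% ± 0.028 in Gα13-deficient and 1.50% ± 0.073 in WT cells, which is 1.14 times the WT mean in each deficient group. Exact Clopper-Pearson 95% intervals of the single shares were no wider than ± 0.011 percentage points and cover counting error only. Large-subunit genes held 1.01%, 1.01% and 0.888% and small-subunit genes 0.696%, 0.696% and 0.603% in CD97-deficient, Gα13-deficient and WT cells on average. A share says nothing of the amount per cell, since RNA per cell was not measured, and in bulk RNA fewer cells of a type and less RNA per cell cannot be told apart.

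Malat1, a nuclear long noncoding RNA, took 22555 ± 1151 CPM of the library total in CD97-deficient, 25716 ± 826 CPM in Gα13-deficient and 37542 ± 3048 CPM in WT libraries (SD, n = 3 each). It fell in both deficient groups (edgeR adjusted p = 0.000456 and 0.000613). With Malat1 taken out of the totals, the summed share of the ribosomal protein genes was 1.75% ± 0.047 in CD97-deficient, 1.76% ± 0.031 in Gα13-deficient and 1.56% ± 0.071 in WT cells.

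**Figure D1:**
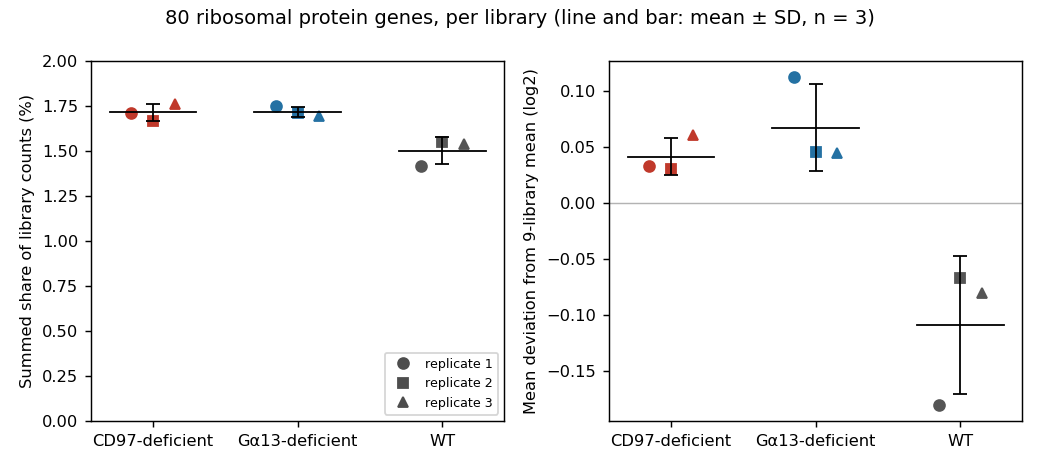
Left, summed counts of the 80 ribosomal protein genes as a percentage of the library total; right, their mean deviation (log2 TMM CPM) from the 9-library mean, for CD97-deficient, Gα13-deficient and WT libraries. Points are libraries, with marker shapes for replicates, and lines and bars are mean ± SD (n = 3); the 3 WT libraries lie below the 6 others in both panels, and WT replicate 1 lies lowest.

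Scaled gene by gene, the mean deviation of the 80 genes from their 9-library means was 0.033, 0.031 and 0.061 (log2) in CD97-deficient, 0.112, 0.046 and 0.045 in Gα13-deficient and -0.180, -0.067 and -0.080 in WT libraries. WT replicate 1 stood apart inside its group. It was the lowest of the 9 libraries for 45 of the 80 genes, against 7 and 18 for WT replicates 2 and 3, and Gα13-deficient replicate 1 was the highest for 34.

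**Figure D2:**
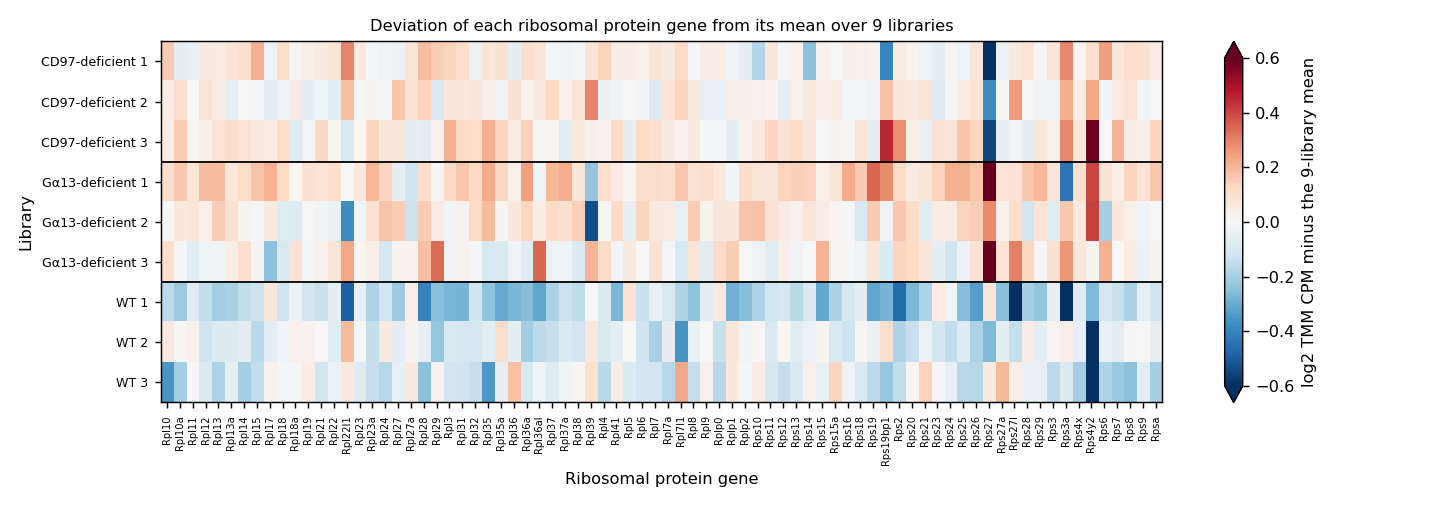
Each column is one of 78 of the 80 ribosomal protein genes and each row a library; colour gives the log2 TMM CPM minus the mean over the 9 libraries, red above and blue below, capped at 0.6 either way. The WT rows are mostly blue with WT replicate 1 darkest (mean -0.180), and single genes such as Rps27, Rps4y2, Rps3a and Rpl39 depart from their neighbours in some libraries.

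Levels of different genes were compared per kilobase of exon, with the merged exons of the coding transcripts as the length. In WT cells the 79 genes with a length spanned 1.83 to 728 CPM per kb, with a median of 161. Rpl4, which lines the tunnel through which the new protein leaves the ribosome, was the highest at 811 ± 52.0 CPM per kb in CD97-deficient, 826 ± 31.8 in Gα13-deficient and 728 ± 22.4 in WT cells (SD, n = 3). After it in WT came Rps4x at 532 ± 30.8 and Rps29 at 505 ± 35.9 CPM per kb, and among the 5 highest was also Rpl10 at 448 ± 63.7 CPM per kb. Rpl4 stood clear of the rest beyond the spread, and Rps4x and Rps29 did not differ beyond theirs. The lowest were Rps27 at 1.83 ± 0.232, Rps19bp1 at 6.95 ± 1.01, Rpl7l1 at 10.8 ± 2.30, Rps27l at 25.8 ± 6.28 and Rpl35 at 25.8 ± 2.58 CPM per kb in WT. The order depends on the length used. With the principal transcript as the length, an alternative chosen after the values were seen, Rps4x, Rps29 and Rpl10 ranked 7, 9 and 8, and the rank correlation between the 2 orders over 79 genes was 0.77.

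**Figure D3:**
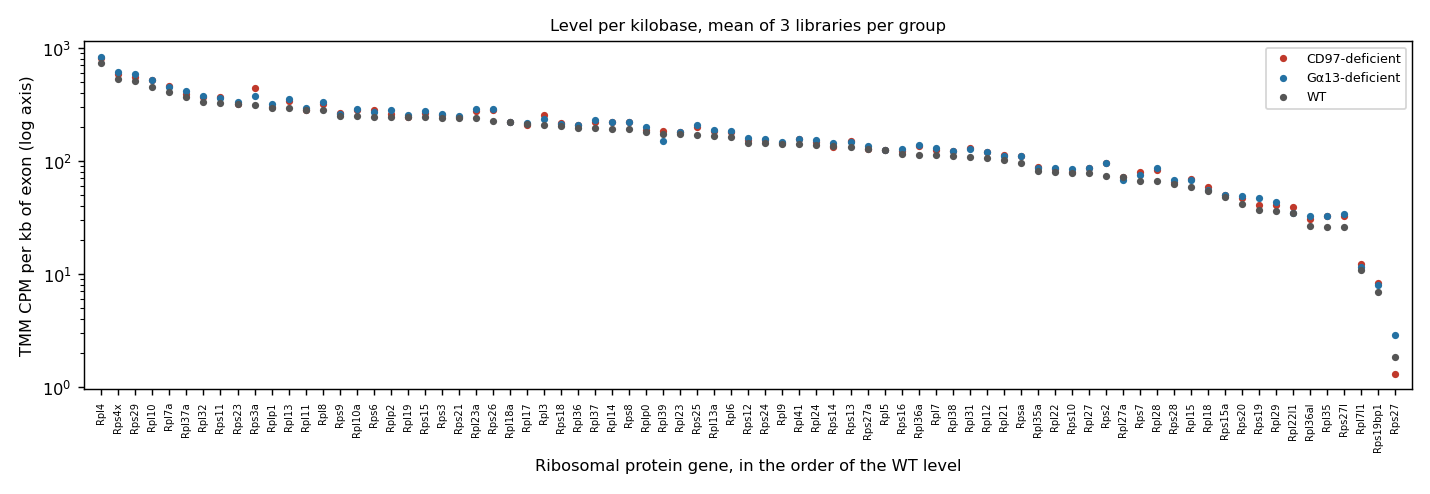
TMM CPM per kilobase of merged exon (log axis) for 77 of the 79 ribosomal protein genes with a length, in the order of the WT mean; each point is the mean of 3 libraries for CD97-deficient, Gα13-deficient or WT cells. Levels run from 728 CPM per kb (Rpl4) to 1.83 (Rps27) in WT, and most deficient points lie just above their WT point.

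Many of these genes have processed pseudogenes, intron-less copies that share their sequence, and reads that fit several copies can be lost or misassigned by counting. Of the 50-base words of each gene's longest coding transcript, a median of 37.8% also occurred in annotated pseudogenes (79 genes, 0% to 85.6%). It was 85.6% for Rpl3, 80.3% for Rpl13, 71.3% for Rps2 and 37.8% for Rps26. The median level per kb in WT was 111 CPM for the 10 genes under 10% and 203 CPM for the 25 genes at 50% or more. In addition 29 members hold 57 small nucleolar RNA genes inside them, and 23 overlap a gene on the opposite strand. Among the latter are Rps2 (Snhg9, Snora78), Rpl3 (Syngr1) and Rpl28 (Ube2s), and the sources used here do not say whether strand was used, so reads of such pairs may not be told apart.

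In CD97-deficient cells most ribosomal protein genes had fitted values slightly above WT, and few passed the test. Against WT, 75 of the 80 fitted log2 fold changes were above 0, as were 49.6% of all 12043 genes tested. The median was 0.15 (1.11-fold), against -0.003 for all genes, and the quartiles of the 80 genes were 0.08 and 0.20. Libraries of CD97-deficient cells were all above those of WT for 37 genes (46.2%; 14.7% of all genes), and all below for 1, Rps27 (13.5% of all genes). Rps27 met the level rule without any CD97-deficient library. A gene was called at an edgeR adjusted p under 0.05 over all genes tested. By that rule 3 genes rose, Rps26, Rps2 and Rpl3 (4.84% of all genes were called higher), and none fell (3.69% of all genes). At an unadjusted p under 0.05, 25 of the 80 were higher and 0 lower, against 1502 higher and 1444 lower of all 12043 genes tested. DESeq2 called 5 higher. The share of members called is thus near that of all genes. The 3 calls depended on single libraries: none remained without WT replicate 1, where the median was 0.11, or without CD97-deficient replicate 3, 1 gene was called without CD97-deficient replicate 1 and 1 without replicate 2, and 6 without WT replicate 2. With the sex pattern in the model 0 were called and the median was 0.14. All CD97-deficient libraries share the female pattern, so sex and genotype are confounded except through 1 WT and 1 Gα13-deficient library.

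In Gα13-deficient cells the fitted values were of like size. Against the same WT libraries, 78 of the 80 fitted log2 fold changes were above 0 (49.0% of all genes), with a median of 0.17 (1.13-fold) against -0.008 for all genes. Gα13-deficient libraries were all above WT for 39 genes (48.8%; 15.5% of all genes) and all below for none (14.0% of all genes). In edgeR's test 6 genes rose, among them Rps26, Rps2, Rpl28, Rps19 and Rpl13 (5.74% of all genes were called higher), and none fell (5.24% of all genes). At an unadjusted p under 0.05, 38 of the 80 were higher and 0 lower, against 1574 higher and 1537 lower of all 12043 genes tested. A fit of these groups alone called Rps26 and Rps2, and with the replicate number as a block it called 3 of them, Rps26, Rps2 and Rpl28. Only 1 gene was called without each of WT replicate 1, Gα13-deficient replicate 1 and Gα13-deficient replicate 2, and 0 in the male-pattern libraries alone (2 against 2, an alternative chosen after the data were seen), where the median was 0.19. Plasmacytoid dendritic cell markers summed to 221 to 333 CPM of the library total in Gα13-deficient, against 154 to 208 CPM in WT libraries, with 2 of 8 called higher, and their part in the result was not tested. Both comparisons share the WT libraries, and WT replicate 1 enters both.

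**Figure D4:**
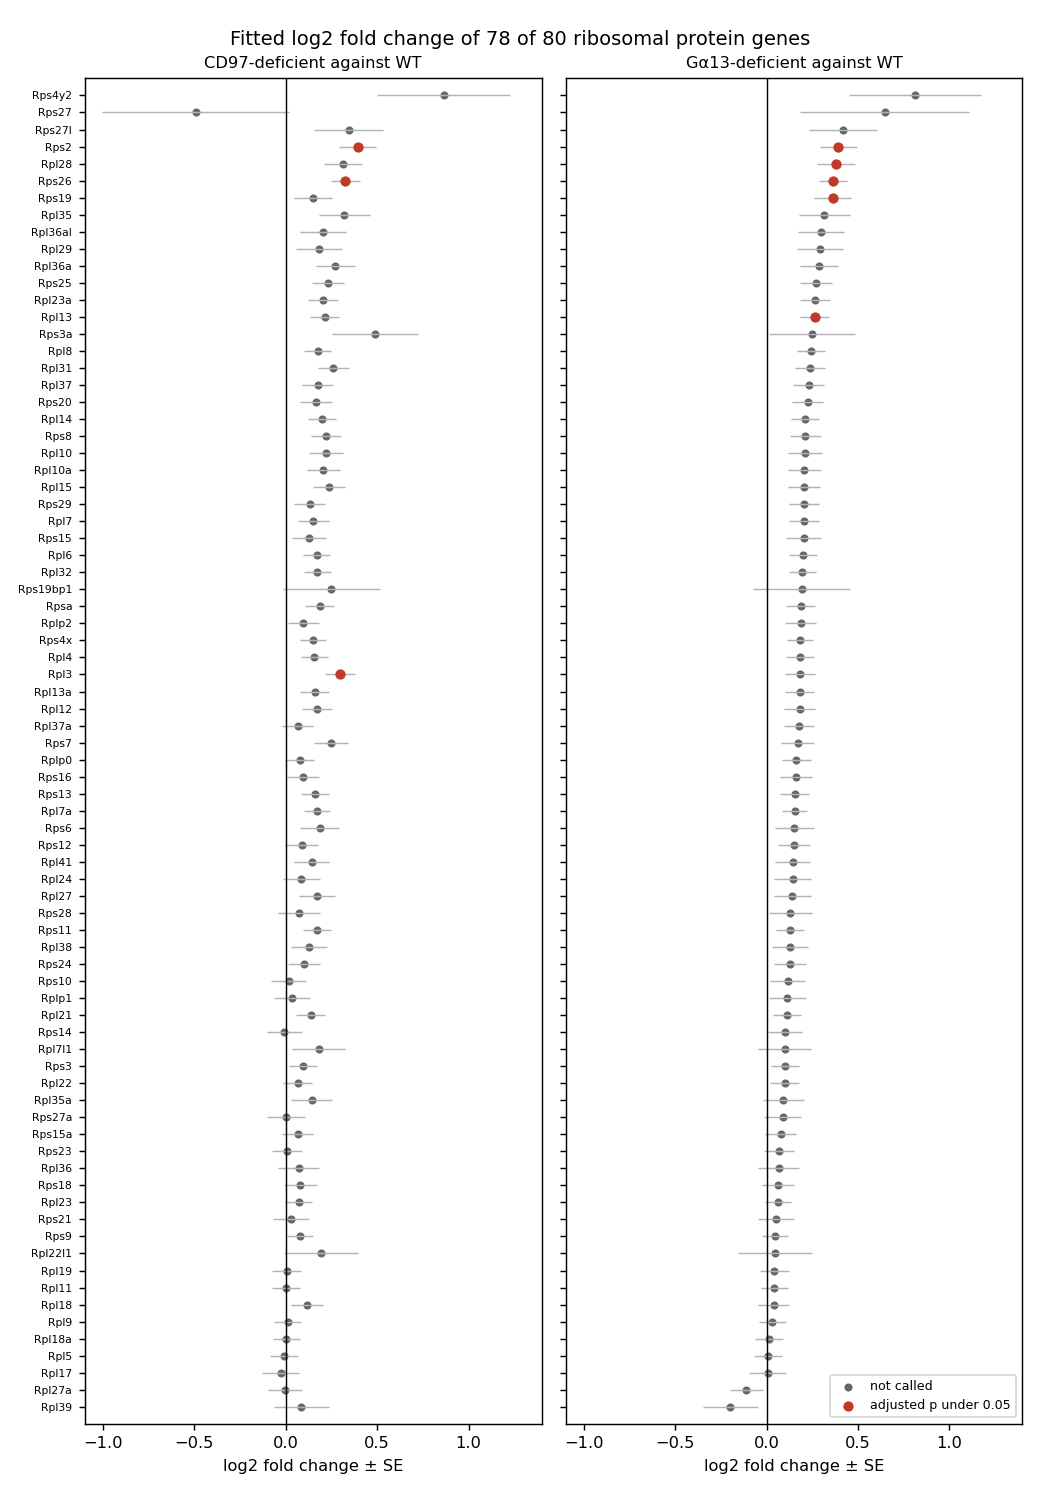
Fitted log2 fold changes ± SE of 78 of the 80 ribosomal protein genes for CD97-deficient against WT (left) and Gα13-deficient against WT (right), in the order of the right panel; red points passed the test (edgeR adjusted p under 0.05), 3 on the left and 5 on the right. Most points lie between 0 and 0.4, with wide errors for low genes such as Rps27 and Rps4y2; the panels share the WT libraries.

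The deficient groups did not differ from each other at any ribosomal protein gene in edgeR's test. For Gα13-deficient against CD97-deficient cells 0 genes were called higher (0.0332% of all genes) and 0 lower (0.0166%). At an unadjusted p under 0.05, 1 (Rps27) was higher and 0 lower, against 387 higher and 335 lower of all 12043 genes tested. Rps27 met the level rule only with its Gα13-deficient libraries, so its place in the counts and values of this comparison is no separate result. The log2 fold change was above 0 for 53 genes (49.1% of all genes), with a median of 0.02. Libraries did not overlap, with Gα13-deficient above, for 5 genes (6.25%; 7.16% of all genes), namely Rpl8, Rplp0, Rps19, Rps27 and Rps27a, and below for none (5.99% of all genes). The smallest p-values in the upward direction were those of Rps27 (1.14), Rps19 (0.21), Rpl37a (0.11), Rps14 (0.11) and Rplp0 (0.09), and downward those of Rpl39 (-0.28), Rpl3 (-0.11), Rpl27a (-0.11), Rps3a (-0.24) and Rpl18 (-0.08), given as log2 fold changes. The 95% interval of the difference lay within ± 0.5 (log2) for 74 of the 80 genes and held 0 for 79. The exceptions to the first count were Rpl22l1, Rpl39, Rps19bp1, Rps27, Rps3a and Rps4y2.

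Rps26 and Rps2, the named members called in both deficient groups, lie along the path of the mRNA through the small subunit. The grouping by this path was set after the values were seen, so their shared place is no separate result. Rps26 (chromosome 10, 128624534 to 128626747, minus strand), a protein near the mRNA exit, had 188, 190 and 196 CPM in CD97-deficient, 200, 198 and 190 CPM in Gα13-deficient and 142, 157 and 159 CPM in WT libraries. All libraries of the deficient groups were above all WT libraries, and WT replicate 1 was the lowest. The log2 fold change was 0.33 ± 0.08 (SE; edgeR adjusted p = 0.0201) for CD97-deficient and 0.36 ± 0.08 (edgeR adjusted p = 0.00851) for Gα13-deficient against WT. With each library left out in turn (9 fits), the CD97 call passed in 5 (highest adjusted p 0.0897) and the Gα13 call in 9 (highest 0.0381). Rps2 (chromosome 17, 24718116 to 24721929, plus strand), at the mRNA entry, had 118, 119 and 138 CPM in CD97-deficient, 123, 127 and 125 CPM in Gα13-deficient and 82.9, 100.3 and 103 CPM in WT libraries. The groups again did not overlap with WT, with a log2 fold change of 0.39 ± 0.10 in each comparison (edgeR adjusted p = 0.0261 and 0.0211), called in 7 and 6 of the 9 fits.

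Of the other genes of the mRNA path, Rps3, Rps28 and Rps14 had smaller values. Rps3, at the entry, had log2 fold changes of 0.09 and 0.10 for CD97-deficient and Gα13-deficient against WT, Rps28 0.07 and 0.13, and Rps14 -0.01 and 0.10, all with overlapping groups and none called.

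**Figure D5:**
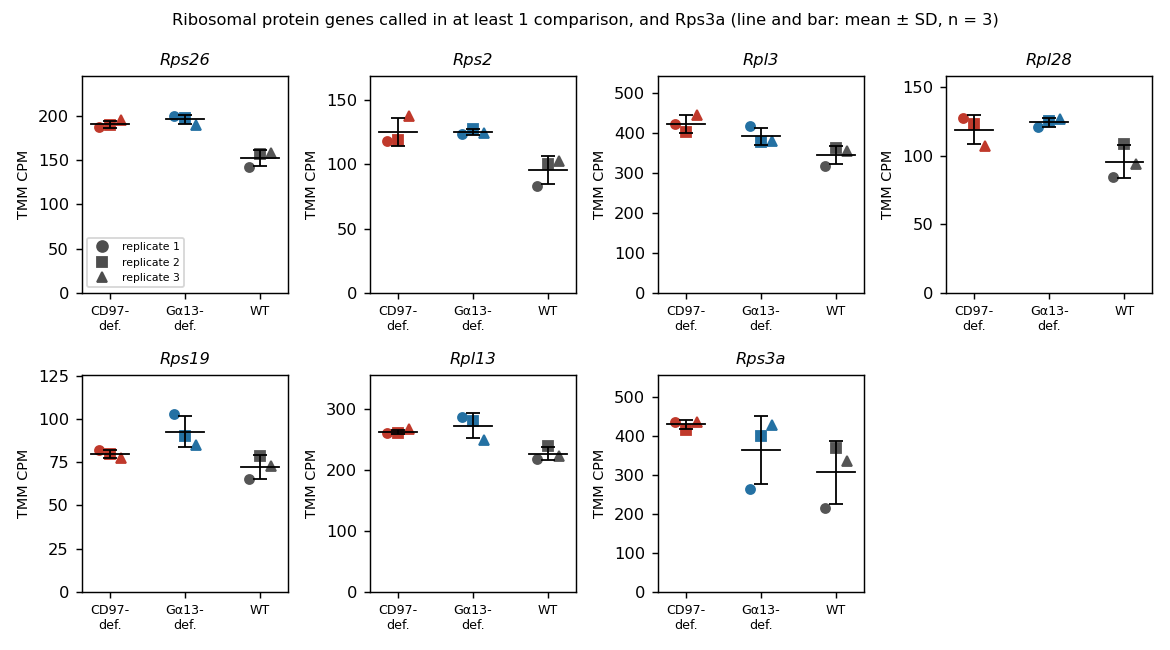
TMM CPM of 6 ribosomal protein genes that passed the test in at least 1 comparison with WT, and of Rps3a, the most variable member, in CD97-deficient, Gα13-deficient and WT libraries. Points are libraries, with marker shapes for replicates, and lines and bars are mean ± SD (n = 3); Rps26, Rps2, Rpl3 and Rpl13 show no overlap of either deficient group with WT, and WT replicate 1 is the lowest library in all 7 panels.

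Of the genes mutated in Diamond-Blackfan anaemia in humans, an inherited failure of red cell production, 9 were listed, and 1 rose in CD97-deficient and 2 in Gα13-deficient cells (4.84% and 5.74% of all genes were called higher). One of these is Rps26. The other, Rps19 (chromosome 7, 24884371 to 24889806, plus strand), is needed to finish the RNA of the small subunit and had 82.2, 79.7 and 77.7 CPM in CD97-deficient, 103, 90.2 and 85.04 CPM in Gα13-deficient and 65.2, 78.8 and 72.5 CPM in WT libraries. The Gα13-deficient libraries were above all others, and CD97-deficient replicate 3 fell inside the WT range. Its log2 fold change was 0.36 ± 0.10 for Gα13-deficient against WT (edgeR adjusted p = 0.0366; called in 3 of the 9 fits) and 0.15 ± 0.10 for CD97-deficient against WT (edgeR adjusted p = 0.415), and the difference between the deficient groups, 0.21 with a 95% interval of -0.01 to 0.43, was not called. The list's medians were 0.14 and 0.13.

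In the large subunit, Rpl3 (chromosome 15, 80077791 to 80091868, minus strand), which reaches towards the site of peptide bond formation, had 423, 402 and 447 CPM in CD97-deficient, 417, 378 and 380 CPM in Gα13-deficient and 318, 362 and 356 CPM in WT libraries. Both deficient groups lay above WT without overlap. It rose in CD97-deficient cells (0.30 ± 0.08, edgeR adjusted p = 0.0350; called in 4 of the 9 fits), and for Gα13-deficient cells the value was 0.18 ± 0.08 (edgeR adjusted p = 0.165). Rpl28 (chromosome 7, 4792874 to 4795066, plus strand), a protein that budding yeast lacks, had 127, 123 and 107 CPM in CD97-deficient, 121, 125 and 127 CPM in Gα13-deficient and 84.4, 108 and 94.3 CPM in WT libraries. WT replicate 2 lay just above CD97-deficient replicate 3, and the Gα13-deficient libraries were clear of WT. It rose in Gα13-deficient cells (0.38 ± 0.10, edgeR adjusted p = 0.0288; called in 4 of the 9 fits), against 0.31 ± 0.10 for CD97-deficient cells (edgeR adjusted p = 0.0739). Rpl13 (chromosome 8, 123102350 to 123105244, plus strand) had 261, 261 and 267 CPM in CD97-deficient, 287, 280 and 249 CPM in Gα13-deficient and 219, 239 and 223 CPM in WT libraries. All WT values were below, and the gene rose in Gα13-deficient cells (0.26 ± 0.08, edgeR adjusted p = 0.0475; called in 2 of the 9 fits), against 0.21 ± 0.08 for CD97-deficient cells (edgeR adjusted p = 0.113).

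Along the exit tunnel and its rim, 0 of 7 listed genes passed, with medians of 0.16 for CD97-deficient and 0.18 for Gα13-deficient against WT. Rpl31, at the rim, had 197, 191 and 198 CPM in CD97-deficient, 204, 186 and 186 CPM in Gα13-deficient and 150, 170 and 168 CPM in WT libraries. It did not overlap with WT in either group, at 0.26 and 0.24 (edgeR adjusted p = 0.0635 and 0.0782). Rpl39, a small protein of the tunnel wall, had 108, 126 and 105 CPM in CD97-deficient, 87.6, 70.9 and 118 CPM in Gα13-deficient and 103, 107 and 110 CPM in WT libraries. Gα13-deficient replicates 1 and 2 were below WT and replicate 3 above it. The log2 fold change was -0.20 ± 0.15 for Gα13-deficient against WT (edgeR adjusted p = 0.441), and it was -0.42 and called (adjusted p = 0.0406) without Gα13-deficient replicate 3. Rpl17 had values of -0.03 and 0.01, and Rpl27a, elsewhere in the large subunit, -0.01 and -0.11.

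The P stalk recruits the elongation factors to the ribosome. None of its 3 genes passed. Rplp0 had 309, 292 and 298 CPM in CD97-deficient, 314, 315 and 325 CPM in Gα13-deficient and 312, 273 and 267 CPM in WT libraries. Gα13-deficient libraries were just above WT, and CD97-deficient ones overlapped with it, at log2 fold changes of 0.16 (Gα13-deficient) and 0.08 (CD97-deficient). Rplp1 and Rplp2 had 0.11 and 0.19 in Gα13-deficient and 0.03 and 0.10 in CD97-deficient cells. Rpsa, which also acts as a laminin receptor at the cell surface, had 0.18 for CD97-deficient and 0.19 for Gα13-deficient against WT, with no overlap in either case (edgeR adjusted p = 0.168 and 0.154).

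Rpl5 and Rpl11, which assemble with 5S rRNA and can bind MDM2, the inhibitor of p53, had close means in the 3 groups. Rpl5 had 289, 280 and 269 CPM in CD97-deficient, 283, 271 and 291 CPM in Gα13-deficient and 297, 280 and 265 CPM in WT libraries. The groups overlapped fully, and the 95% intervals of the log2 fold change ran from -0.17 to 0.16 and from -0.16 to 0.17. Rpl11 had 265, 272 and 274 CPM in CD97-deficient, 286, 287 and 261 CPM in Gα13-deficient and 259, 278 and 273 CPM in WT libraries, with log2 fold changes of 0.00 (95% interval -0.16 to 0.16) and 0.04 (-0.12 to 0.20). WT replicate 1 was the highest WT library for Rpl5 and the lowest for Rpl11. Rps6, the substrate of the S6 kinases downstream of mTORC1, had 276, 228 and 232 CPM in CD97-deficient, 247, 203 and 269 CPM in Gα13-deficient and 217, 226 and 205 CPM in WT libraries. Gα13-deficient replicate 2 was the lowest of all, and the log2 fold changes were 0.18 ± 0.11 and 0.15 ± 0.11 (edgeR adjusted p = 0.309 and 0.397).

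The X chromosome carries 4 members, Rpl10, Rpl36a, Rpl39 and Rps4x, and none passed. Their log2 fold changes ran from 0.08 to 0.27 for CD97-deficient against WT, where the sex pattern of the libraries differs most, and from -0.20 to 0.29 for Gα13-deficient against WT. Rps4x had 564, 573 and 589 CPM in CD97-deficient, 598, 583 and 588 CPM in Gα13-deficient and 531, 541 and 485 CPM in WT libraries. The groups did not overlap with WT, and the values were 0.15 ± 0.07 and 0.18 ± 0.07 (edgeR adjusted p = 0.216 and 0.115).

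Per kilobase, Rpl22l1 and Rpl36al lay below their parents Rpl22 and Rpl36a in all 3 groups (34.2 against 80.3 and 26.4 against 113 CPM per kb in WT), Rps27l lay above its parent Rps27 (25.8 against 1.83), and none passed. Rpl22l1, the alternative to Rpl22, averaged 21.9 ± 2.92 CPM in CD97-deficient, 19.5 ± 4.04 CPM in Gα13-deficient and 19.2 ± 4.46 CPM in WT cells, while Rpl22 averaged 173 ± 8.69, 177 ± 8.97 and 166 ± 1.96 CPM (SD, n = 3). Rpl36al averaged 41.0 ± 1.20, 43.5 ± 6.14 and 35.7 ± 3.58 CPM, and Rpl36a 65.7 ± 2.64, 66.6 ± 7.33 and 54.6 ± 3.06 CPM, in the same order of groups. Rps27l, a p53-responsive paralogue of Rps27, averaged 18.8 ± 1.89, 19.7 ± 1.65 and 14.9 ± 3.64 CPM. Rps27 itself averaged 0.790 ± 0.085 CPM in CD97-deficient, 1.73 ± 0.293 CPM in Gα13-deficient and 1.11 ± 0.141 CPM in WT cells, from 6 to 26 counts per library. The Gα13-deficient libraries, without which Rps27 would not be a member, were above all others. The direct difference of 1.14 ± 0.48 (log2; edgeR adjusted p = 0.782) did not pass. Of the 50-base words of Rps27, 63.1% also occur in other genes, and the part of that sharing in its low count was not tested.

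Against WT, the widest fitted change in each deficient group was that of Rps4y2, listed by GENCODE as Rps4l, a relative of Rps4x. This gene has no coding transcript in GENCODE and overlaps Tmtc1 on the opposite strand. It had 2.96, 3.22 and 4.13 CPM in CD97-deficient, 3.63, 3.65 and 2.78 CPM in Gα13-deficient and 2.29, 1.77 and 1.53 CPM in WT libraries. All WT libraries were below the others, but the gene is low and neither log2 fold change passed (0.86 ± 0.36 and 0.81 ± 0.36, edgeR adjusted p = 0.155 and 0.171). Rpl7l1, a relative of Rpl7, had 0.18 and 0.10, and Rps19bp1, which binds Rps19 and is no ribosomal protein, 0.25 and 0.19, all with overlap.

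Replicates of one group agreed more closely on these genes than on the average gene. The median within-group SD was 0.086 (log2) for the 80 genes, against 0.197 for all genes tested, and 0.083 against 0.120 among genes at 50 CPM or more (70 and 3959 genes). The most variable member was Rps3a (Rps3a1 in GENCODE), a small-subunit protein, with an SD of 0.325. It had 438, 417 and 437 CPM in CD97-deficient, 264, 400 and 430 CPM in Gα13-deficient and 215, 369 and 337 CPM in WT libraries. Replicate 1 was low in both the Gα13-deficient and WT groups and not in the CD97-deficient one, and the log2 fold changes of 0.49 ± 0.24 and 0.25 ± 0.24 were not called (edgeR adjusted p = 0.254 and 0.563). Of its 50-base words 71.0% occur in other genes.

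Of 3 ribosomal protein genes tested whose symbols fall outside the rule, none was called. Gnb2l1, which encodes the small-subunit scaffold RACK1, had log2 fold changes of 0.12 for CD97-deficient and 0.21 for Gα13-deficient against WT, and Fau (a ubiquitin-like protein fused to a small-subunit one) -0.07 and 0.09. Mitochondrial ribosomal proteins, which form a separate ribosome, had 4 of 76 genes higher and none lower in each deficient group, a share near that of all genes called higher (4.84% and 5.74%), with medians of 0.19 and 0.18. Mrpl18 averaged 49.2 ± 6.76 CPM in CD97-deficient, 48.5 ± 1.73 CPM in Gα13-deficient and 32.3 ± 3.05 CPM in WT cells, and Mrps28 12.6 ± 0.850, 12.1 ± 1.14 and 6.12 ± 3.04 CPM.

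Genes that build ribosomes in the nucleolus had 5 of 54 higher and 1 lower in CD97-deficient cells (median 0.29). In Gα13-deficient cells 5 were higher and none lower (median 0.19). Of all genes, 4.84% and 5.74% were called higher and 3.69% and 5.24% lower in the same order of groups. Dkc1, the enzyme that converts uridine to pseudouridine in rRNA, had 83.5, 68.3 and 84.7 CPM in CD97-deficient, 70.1, 64.3 and 74.3 CPM in Gα13-deficient and 44.7, 59.4 and 47.2 CPM in WT libraries. It lay above WT in all libraries of both groups and rose by 0.65 and 0.47 on the log2 scale (edgeR adjusted p = 0.00587 and 0.0264). Its partner Nop10 rose by 0.50 and 0.59, and Nop56, of the particle that methylates rRNA, by 0.39 and 0.38. Nop2, an rRNA methyltransferase, and Lsg1, which helps release the new large subunit, passed for CD97-deficient cells (0.53 and 0.33), and Rrp1b and Fbl for Gα13-deficient cells (0.61 and 0.49). The difference between the deficient groups was called for 0 of the 54 genes. The lower gene was Tcof1, which acts in rRNA transcription, at -0.40 in CD97-deficient cells (edgeR adjusted p = 0.0373).

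Translation factors whose mRNAs carry TOP motifs had 2 of 18 higher and 1 lower in CD97-deficient cells. In Gα13-deficient cells 4 were higher and none lower, and the medians were 0.17 and 0.14. Over all genes the called shares were 4.84% and 5.74% higher and 3.69% and 5.24% lower. Eif3l, a subunit of initiation factor eIF3, had 125, 129 and 131 CPM in CD97-deficient, 115, 132 and 134 CPM in Gα13-deficient and 94.6, 97.7 and 99.7 CPM in WT libraries. WT was below without overlap, and the gene rose by 0.40 and 0.38 (edgeR adjusted p = 0.0117 and 0.0111). The elongation factor subunit Eef1g rose by 0.32 and 0.31, while the initiation helicase Eif4a2 was called lower in CD97-deficient cells (-0.33, edgeR adjusted p = 0.0366). Of 12 hosts of small nucleolar RNAs, 0 passed in either comparison.

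A list of regulators of mTORC1 and of TOP mRNAs, which also held Mxd1 and Mxd3, had 1 of 26 genes higher and 2 lower in CD97-deficient cells. In Gα13-deficient cells 1 was higher and 4 were lower. Of all genes, 4.84% and 5.74% were called higher and 3.69% and 5.24% lower in the same order of groups. The gene called higher was Mxd3 in each comparison, and all other calls in the list were lower. Deptor, an inhibitor of mTOR, averaged 9.04 ± 0.897 CPM in CD97-deficient, 8.21 ± 1.25 CPM in Gα13-deficient and 17.5 ± 4.67 CPM in WT cells, and it fell by 0.96 and 1.10 on the log2 scale (edgeR adjusted p = 0.0154 and 0.00524). Mxd1, which opposes MYC, fell by 0.68 and 0.90, and Mxd3 of the same family rose by 1.59 and 1.72. Sesn2 and Sesn3, sestrins that restrain mTORC1, fell by 0.45 and 0.42 in Gα13-deficient cells and had -0.21 and -0.04 in CD97-deficient cells. In the same libraries 17 of 18 cell cycle genes rose in each comparison, with medians of 0.96 and 1.04, and 5 and 6 of 12 maturation genes fell. Their part in the values of the ribosomal protein genes was not tested.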

How the data were processed

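The authors deposited a table of whole-number counts per gene symbol for 9 libraries; the submitters' processing notes name STAR, HTSeq, DESeq2 and mm10 with no versions. The sources used here do not state strand use or library chemistry. All 9 count columns were used, and 0 were left out. Columns were matched to samples through titles and source names. Total counts were 5679946 to 13904646 per library. Tests used edgeR 4.0.16 under R 4.3.3 (TMM factors, filterByExpr, robust quasi-likelihood F-tests, Benjamini-Hochberg adjustment over all 12043 genes tested, 2166 removed), with all 9 libraries in 1 fit and genotype as the factor. Biological variation between replicates (edgeR's common coefficient) was 0.15. The script was tested on simulated data with planted changes larger than the median changes of the ribosomal protein genes. That test does not cover changes as small as those medians. Standard errors came from the F statistic.

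Gene positions, exon lengths and 50-base words were taken from GENCODE mouse release M21 (GRCm38), and start windows from RefSeq tables on GRCm38.p6. The members and the gene lists were chosen with earlier results of these data known, and the groups of members by role were set after their values were seen. Named genes were, per comparison and direction, the 10 called members with the smallest p (or the 5 with the smallest p where fewer than 5 were called), the 5 highest and lowest per kilobase in WT, the stalk genes and Rpsa, Rpl5, Rpl11, Rps6, the paralogues with their parents, and the members of other lists with the smallest p. Rps3 and Rps28 were named after their values were seen. Values of some genes in the counts are not reported here.

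Same-number libraries of the Gα13-deficient and WT groups deviated together (3 of 3 correlations over 0.1, from 0.111 to 0.179, against -0.12 to -0.0207 for other numbers), so the numbers were taken to pair them, from the data and not from the labels. The numbers come from the titles, whereas the count table numbers the WT libraries differently. The pairs also share their sex pattern (male, female and male). For CD97-deficient and WT libraries 0 of 3 correlations were over 0.1 (-0.301 to 0.0594), and for the deficient groups 0 of 3 (-0.0731 to 0.0112). The alternatives were other scalings and filters, DESeq2 1.42.0, the sex pattern, the compared groups alone, a replicate block and leaving out each library. The main fit did not use the pairs. It called 6 members higher for Gα13-deficient against WT, and the fit of these groups with the replicate block called 3.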

Additional observations from a re-analysis of the deposited data

How the results depend on the processing

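The count of ribosomal protein genes called higher was 3 for CD97-deficient and 6 for Gα13-deficient against WT. Scaled by library totals alone it was 7 and 13, and the median log2 fold change for CD97-deficient cells was 0.20. With the sex pattern as a covariate it was 0 for CD97-deficient cells, with DESeq2 5 for the same group, and with the compared groups alone 1 and 2. Adding the replicate block to those fits gave 2 and 3, and the numbers of CD97-deficient and WT libraries do not pair. Leaving out each library gave 0 to 6 for CD97-deficient and 1 to 9 for Gα13-deficient cells, and 0 to 1 called lower in Gα13-deficient cells. Alternatives chosen after seeing the data gave 0 and 1 among the 10 members with under 10% of 50-base words in pseudogenes, and 0 for Gα13-deficient cells in male-pattern libraries. The summed share in Gα13-deficient cells was 1.76% without Malat1 in the totals. The median log2 fold change stayed above 0 in all fits run, at 0.112 to 0.203 for CD97-deficient against WT, 0.139 to 0.210 for Gα13-deficient against WT and 0.001 to 0.041 for Gα13-deficient against CD97-deficient cells. No called gene changed sign; among 37 named genes, 82 of 2031 uncalled values did. There are 3 libraries per group, and 1 low WT library touches both comparisons.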
